A study of Mus musculus with 8 samples.

Results

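Chemokines and secreted cytokines were followed in primary murine keratinocytes (KCs) that had been kept in culture for 1 week or for 3 weeks. The group holds 39 genes, which were taken by name from the 41457 genes of the deposited tables and not by a rule on their level or their change. Earlier results of these data were known when the group was chosen. It comprises 13 CXC or CX3C chemokines, 9 CC chemokines, 4 ligands of the colony-stimulating factor (CSF) receptors, 4 cytokines of the interleukin-6 family, 3 of the interleukin-20 family, 3 ligands of the tumour necrosis factor (TNF) superfamily, and Il15, Il23a and Mif. All KCs came from the tail skin of adult wildtype mice (C57BL/6 in the labels, C57BL/6J in the text of the study), were untreated and grew in serum-free KC medium with a low calcium concentration. 4 samples were taken at 1 week and 4 at 3 weeks, and the design text speaks of 4 independent experiments. Polyadenylated RNA was sequenced, with 13896807 to 20026084 reads on exons per sample at 1 week and 14096649 to 18127283 at 3 weeks. Cells were split when they became dense, so time in culture and number of passages cannot be told apart.

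Chemokines are small secreted proteins that attract leukocytes by binding to receptors that couple to G proteins. CXC chemokines with an ELR motif call neutrophils through Cxcr2, CC chemokines call monocytes, dendritic cells and lymphocytes, and the colony-stimulating factors support the growth and survival of myeloid cells. KCs of the epidermis are a known source of all of these, and several of the same factors belong to the secretory phenotype of senescent cells. Many of their genes are switched on through NF-κB sites close to the start, and their mRNAs are short-lived because of AU-rich elements behind the coding region.

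Both kinds of element could be read in the sequences. The promoter table of RefSeq (GRCm38.p6, 250 bases before to 50 after each start) held 25 of the 39 members. The stretches shown here come from the neutrophil chemokine genes of chromosome 5 and from Csf1, since levels of these genes are prominent in what follows. Capitals mark a match to the 10-base κB consensus, which was searched on both strands. That site was picked for display after the sequences had been seen.
Cxcl1 (chr5:90891158-90891237, plus strand): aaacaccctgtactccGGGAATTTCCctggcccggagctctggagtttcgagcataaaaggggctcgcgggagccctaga
Cxcl2 (chr5:90903786-90903865, plus strand): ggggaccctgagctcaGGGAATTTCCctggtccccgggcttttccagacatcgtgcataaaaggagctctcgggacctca
Cxcl3 (chr5:90786012-90786091, plus strand): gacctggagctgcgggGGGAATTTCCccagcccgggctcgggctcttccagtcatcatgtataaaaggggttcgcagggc
Cxcl15 (chr5:90794447-90794526, plus strand): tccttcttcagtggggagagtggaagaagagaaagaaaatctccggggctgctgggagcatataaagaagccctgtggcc
Csf1 (chr3:107760560-107760639, minus strand): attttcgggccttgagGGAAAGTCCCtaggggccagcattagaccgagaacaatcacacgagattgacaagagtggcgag

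Cxcl1, Cxcl2 and Cxcl3 carried the same 10 bases, GGGAATTTCC, which began 71, 97 and 73 bases before the start. This exact site was found in 3 of the 25 members and in 0.107% of all 27025 genes with a promoter. The site was read from the Cxcl1 promoter, so its match there was fixed in advance. Cxcl2 and Cxcl3 are related genes of the same stretch of chromosome 5, so these shares measure no enrichment. In each of the 3 promoters a match on the other strand overlapped the site by all but 1 base. Their neighbour Cxcl15 had no match in its window, and the Csf1 match lay on the other strand. The looser κB consensus occurred in 10 of the 25 members (40%) against 9.55% of all genes, namely in Cxcl1, Cxcl2, Cxcl3, Cxcl10, Ccl20, Ccl27a, Csf1, Il6, Il19 and Lif. TGANTCA, the core bound by AP-1 factors, was present in 6 of the 25 members (24%) and in 8.97% of all genes, and TATAAA in 6 members (24%) and 15.7% of all genes. These matches are descriptions of letters, and binding was not measured.

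An AU-rich nonamer, TTATTTATT, lay in the longest annotated 3′ UTR (GENCODE M21, GRCm38) of 10 of the 39 members (25.6%) and of 7.61% of 20971 genes. The median 3′ UTR was shorter in the members (764 bases) than over all genes (954 bases). The nonamer occurred in Cxcl1, Cxcl2, Cxcl3, Cx3cl1, Csf2, Il11, Il23a, Lif, Tnf and Clcf1. Of the members that changed with time, 2 of the 5 that rose and 2 of the 6 that fell carried it. In the following sites, one from an mRNA that rose and one from an mRNA that fell, capitals mark the nonamer and its overlapping repeats.
Csf2 (chr11:54247329-54247357, minus strand): ttttaaatatTTATTTATTTATTTATTTA
Cxcl1 (chr5:90892615-90892643, plus strand): atttatgtatTTATTTATTccacaaagtg

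Before the members are described, the libraries and the cell type need a word. All 8 KC markers passed the filter on low counts, and their summed level was 13331 to 15666 RPKM (reads scaled by exon length and by library size) at 1 week and 8118 to 9627 RPKM at 3 weeks, with Krt5 and Itga6 lower at 3 weeks. Of 19 leukocyte markers, 15 did not pass the filter. Cd8a and Cd207 were at 0 in all 8 samples, as was Trdc, for which the tables give no exon length, and the pan-leukocyte gene Ptprc reached at most 0.0315 RPKM. The summed leukocyte level of 16.7 to 22.9 RPKM at 1 week and 15.2 to 17.1 RPKM at 3 weeks was mostly Cd68, which fell, and at 3 weeks also H2-Ab1, which rose. Lyz2 and H2-Aa also passed the filter, at 0.724 to 2.59 and 0.181 to 0.596 RPKM over all 8 samples. The myeloid genes Tyrobp and Fcer1g did not pass, but had 4 to 19 and 3 to 12 reads per sample. All 8 fibroblast markers passed the filter but at low levels. They summed to 4.00 to 6.98 and 2.84 to 6.14 RPKM, the 4 endothelial markers to 0.401 to 0.559 and 0.275 to 0.458 RPKM, and the 4 Merkel cell markers to 0.0417 to 0.132 and 0.311 to 0.640 RPKM, and of these 3 lists only Pdgfrb was called, as lower. The 6 melanocyte markers, of which Pmel was called lower, summed to 4.76 and 3.25 RPKM in replicates 1 and 2 of 1 week, to 15.5 and 21.0 RPKM in replicates 3 and 4, and to 1.28 to 5.60 RPKM at 3 weeks. Reads of mitochondrial genes made up 2.19 to 3.66% of exon reads at 1 week and 3.73 to 13.3% at 3 weeks, where replicate 3 held the highest share. In such bulk samples, fewer cells that make a factor and less RNA per cell cannot be told apart.

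Of the 39 members, 22 passed the filter on low counts and 17 did not. At 1 week 10 members, and at 3 weeks 8 members, had a mean of at least 10 RPKM, while 21 members had a mean of at least 1 RPKM at 1 week and 21 at 3 weeks. The members together took 0.140 to 0.174% of exon reads at 1 week and 0.117 to 0.165% at 3 weeks. The order of levels at 1 week was Mif, Cxcl1, Cxcl16, Il24, Cxcl5, Csf1, Cxcl3, Lif, Tnf and Cxcl14. At 3 weeks it read Mif, Cxcl16, Cxcl1, Csf1, Lif, Tnf, Cxcl5 and Csf3. Within these orders neighbours overlapped between samples, except that Mif stood above the next gene at both times and Cxcl1 above Cxcl16 at 1 week.

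11 members changed between 1 and 3 weeks with an adjusted p under 0.05 (edgeR quasi-likelihood test with Benjamini-Hochberg adjustment over the 12590 genes tested). Cxcl12, Cx3cl1, Ccl7, Csf1 and Csf2 rose, whereas Cxcl1, Cxcl5, Cxcl14, Ccl27a, Il24 and Clcf1 fell. Among all genes tested 32.8% were called, 15.7% as higher and 17.0% as lower at 3 weeks. On the TMM-scaled log2 CPM that the test compares, 10 members had 1-week and 3-week samples that did not overlap, a pattern seen in 34.9% of all genes tested. On the RPKM values printed here this held for 9 members and 37.0% of all genes tested, since Csf1 overlapped. In a fit of the 3 culture preparations named at both times, with the preparation as block, 9 members were called. Csf1, Cxcl12 and Csf3 were then higher, and Ccl27a, Cxcl1, Cxcl3, Cxcl5, Cxcl14 and Clcf1 lower. The 32.8% of the main fit is no background for that count. The share of all genes called in this blocked fit is not given here. The median log2 fold change was 0.30 for the 22 members and 0.03 for all genes tested, and the median absolute log2 fold change was 1.11 against 0.43. Replicates also scattered more for the members. Their median SD of log2 CPM (counts scaled by library size) was 0.41 at 1 week and 0.68 at 3 weeks, against 0.22 and 0.34 over all genes tested.

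**Figure D1:**
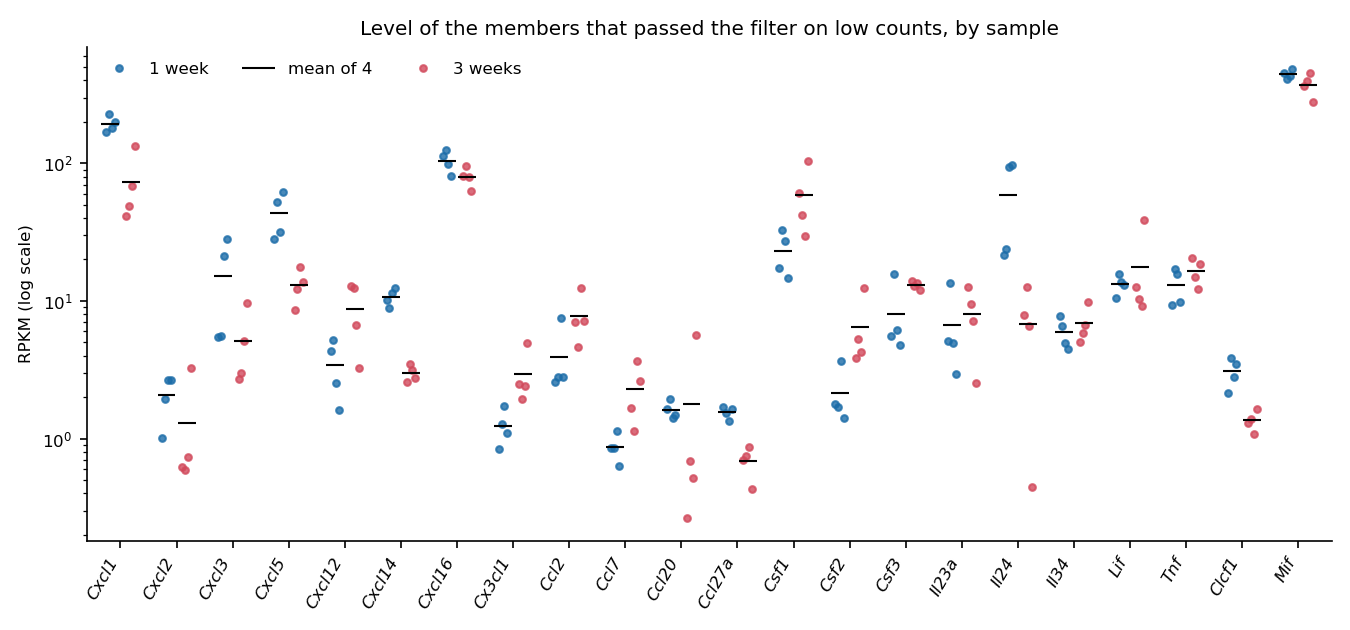
RPKM on a log axis of the 22 members that passed the filter, with the 4 samples of 1 week in blue, the 4 of 3 weeks in red, and bars at the mean of 4. Mif stands highest in both groups, and Il24 covers the widest range, from 96.3 to 0.442 RPKM.

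**Figure D2:**
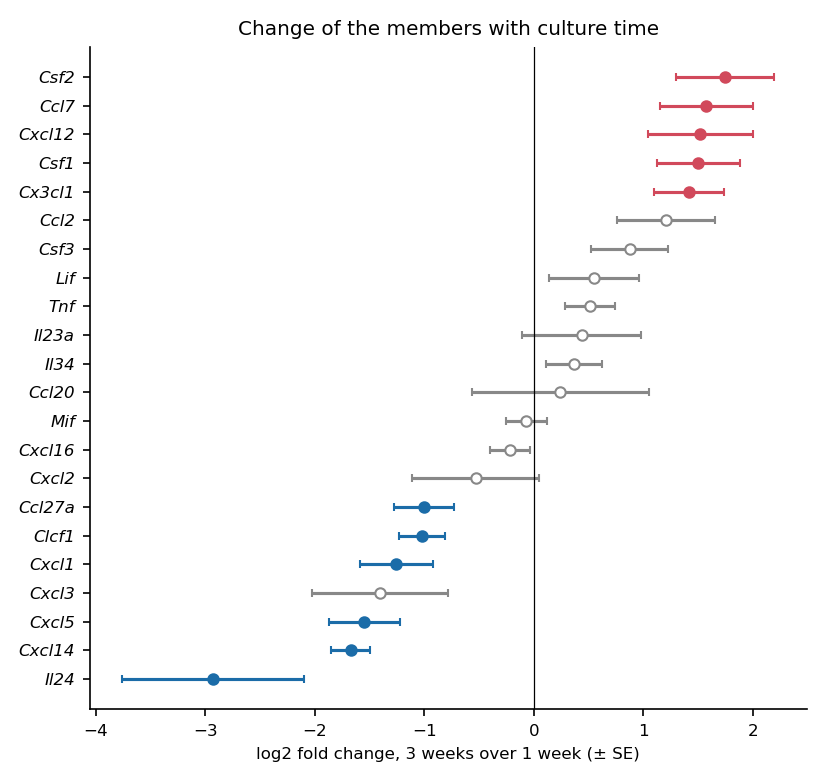
log2 fold change from 1 to 3 weeks of the same 22 genes with its SE, drawn filled where the adjusted p is under 0.05 (red for higher, blue for lower) and open otherwise. Csf2 has the highest value with 1.75, and Il24 the lowest with -2.93.

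Among the neutrophil-attracting CXC chemokines, Cxcl1 and Cxcl5 fell with time in culture. Cxcl1, a murine ligand of Cxcr2 made by epithelia, measured 167, 228, 182 and 198 RPKM in replicates 1 to 4 of 1 week and 41.2, 48.8, 68.0 and 132 RPKM at 3 weeks. Its groups did not overlap, but the 3-week samples spread widely, with replicate 4 highest. The mean of 194 ± 26.1 RPKM dropped to 72.6 ± 41.4 RPKM (SD, n = 4 each), and the log2 fold change was -1.26 ± 0.33 (SE, adjusted p = 0.0193). Leaving out 3 weeks replicate 2 ended this call (adjusted p = 0.0519).

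Cxcl5, another ELR chemokine of epithelia, had 28.1, 51.9, 31.6 and 61.7 RPKM at 1 week and 8.64, 12.2, 17.7 and 13.6 RPKM at 3 weeks. All 1-week samples lay above all 3-week samples. Its log2 fold change of -1.55 ± 0.32 (adjusted p = 0.00646) corresponded to a 2.92-fold lower level.

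Cxcl3, also a Cxcr2 ligand, showed 5.44, 5.55, 21.1 and 28.3 RPKM at 1 week and 2.71, 2.99, 5.10 and 9.61 RPKM at 3 weeks. The groups overlapped, and replicates 3 and 4 of 1 week stood far above replicates 1 and 2. With -1.40 ± 0.62 (adjusted p = 0.114) the difference did not pass the test, while the preparation block called it lower (-1.71, adjusted p = 0.0197). Cxcl2 was low at both times, with 1.02 to 2.66 RPKM at 1 week and 0.588 to 3.26 RPKM at 3 weeks and a log2 fold change of -0.53 ± 0.58 (adjusted p = 0.517). Its highest sample of all was 3 weeks replicate 4, and without that library Cxcl2 was called lower (-1.47, adjusted p = 0.0157). Cxcl15 had 2 reads in 1 sample and none in the others.

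These 5 genes lie on the plus strand of one stretch of chromosome 5, from the start of Cxcl5 at 90759360 to the end of Cxcl2 at 90905938 (GRCm38), which spans 147 kb and holds 11 listed genes. Cxcl1 and Cxcl2 are direct neighbours separated by 10.8 kb, and the promoters shown share the same κB site. The mean level of Cxcl1 at 1 week was 194 RPKM and that of Cxcl2 was 2.07 RPKM. Cxcl15 lies between Cxcl3 and Cxcl1 and was at or near 0. Elsewhere, Il6 and Il19 had a κB match and did not pass the filter. A link between κB matches and levels was not tested.

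**Figure D3:**
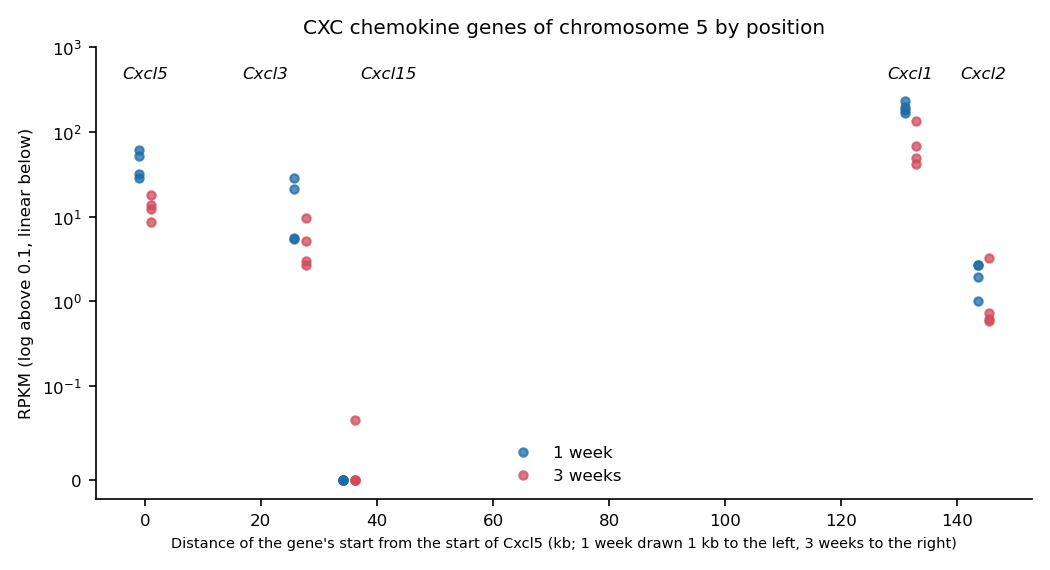
RPKM of the 5 CXC chemokine genes in each sample, on a log axis above 0.1 and a linear one below, against the distance of each gene's start from the start of Cxcl5 in kb. Cxcl5 and Cxcl1 are higher in all 1-week samples (blue) than in all 3-week samples (red), whereas the groups of Cxcl3 overlap. Cxcl2 reaches at most 3.26 RPKM, and Cxcl15 has 1 sample above 0.

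Cxcl9, Cxcl10 and Cxcl11, which interferons induce and which attract T cells through Cxcr3, were not expressed above the filter. Cxcl10 came nearest with 23, 41, 7 and 17 reads at 1 week and 4, 1, 9 and 5 reads at 3 weeks, of which only 21.5% mapped to a single place. Its groups overlapped. Cxcl9 had at most 7 reads and Cxcl11 at most 1 read in any sample.

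The other CXC chemokines and Cx3cl1 went different ways. Cxcl14, a chemokine of resting epithelia, fell from 10.2, 8.88, 11.4 and 12.4 RPKM at 1 week to 2.58, 3.46, 3.17 and 2.76 RPKM at 3 weeks. Replicates lay close together in both groups. Its log2 fold change of -1.67 ± 0.18 had the lowest adjusted p of the members (0.000411), and no alternative of the processing ended the call.

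Cxcl12, the Cxcr4 ligand that retains haematopoietic cells and is mostly known from stroma, measured 4.30, 5.22, 2.52 and 1.61 RPKM at 1 week and 12.8, 12.4, 6.72 and 3.26 RPKM at 3 weeks. The groups overlapped, on the log2 CPM scale as well. The rise of 1.52 ± 0.48 (adjusted p = 0.0372) was lost when any one of 5 samples was left out, namely 1 week replicates 1, 3 and 4 and 3 weeks replicates 1 and 2 (adjusted p = 0.0629, 0.0940, 0.0852, 0.0942 and 0.0915). Of the fibroblast markers 0 of 8 were called higher and Pdgfrb was called lower at 3 weeks. Their summed level in replicates 1 to 4 was 4.76, 6.98, 4.50 and 4.00 RPKM at 1 week and 3.60, 2.84, 3.79 and 6.14 RPKM at 3 weeks. Whether fibroblasts had a part in the Cxcl12 level was not tested.

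Cx3cl1, a membrane-bound chemokine that is shed by proteases and binds Cx3cr1 on monocytes, rose from 0.842, 1.28, 1.72 and 1.10 RPKM to 2.50, 1.95, 2.42 and 4.94 RPKM. The groups did not overlap. The log2 fold change of 1.42 ± 0.32 (adjusted p = 0.00959) was called whichever sample was left out, but not with the preparation block (1.39, adjusted p = 0.0510).

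Cxcl16, also made as a membrane protein and shed, followed Cxcl1 in abundance at 1 week and Mif at 3 weeks. It measured 112, 124, 98.7 and 80.1 RPKM at 1 week and 80.5, 95.1, 79.5 and 62.5 RPKM at 3 weeks, with overlapping groups. Its log2 fold change was -0.22 ± 0.18 (adjusted p = 0.391). Cxcl17 had no read in any sample, which for a floor of 3 reads allows a level of up to 0.191 to 0.275 RPKM, depending on the library. Such floors cover counting error only.

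Within the CC chemokines, the monocyte attractants Ccl2 and Ccl7 had higher means at 3 weeks, and Ccl7 passed the test. Ccl7 measured 0.852, 0.849, 1.13 and 0.637 RPKM at 1 week and 1.67, 1.14, 3.65 and 2.63 RPKM at 3 weeks. Samples of both groups almost touched, at 1.13 and 1.14 RPKM. Its log2 fold change was 1.58 ± 0.43 (adjusted p = 0.0210). The call rested on low counts of at most 48 reads, and it ended without 1 week replicate 1, 2 or 4 (adjusted p = 0.0549, 0.0544 and 0.0632) and with the preparation block (1.09, adjusted p = 0.161).

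Ccl2, which binds Ccr2 on monocytes, lies 8.26 kb upstream of Ccl7 on chromosome 11 (82035571-82037453, GRCm38). Its 1-week samples lay between 2.58 and 7.47 RPKM and its 3-week samples between 4.60 and 12.5 RPKM, and the overlap came from 1 week replicate 3. With 1.20 ± 0.45 (adjusted p = 0.0664) it did not pass the test, and without 1 week replicate 3 it was called higher (1.70, adjusted p = 0.0151). Only 19.0% of its reads mapped uniquely, and unique reads alone gave 0.94 (adjusted p = 0.165). In replicate 3 of both times Ccl2 and Ccl7 were the highest of their group.

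Ccl27a, the KC chemokine that draws skin-homing T cells through Ccr10, fell. It measured 1.70, 1.53, 1.35 and 1.65 RPKM at 1 week and 0.700, 0.742, 0.871 and 0.430 RPKM at 3 weeks. The groups did not overlap, and the log2 fold change was -1.0 ± 0.28 (adjusted p = 0.0223). The level is uncertain, since 28.5% of the reads were unique, near-identical gene copies exist, and Il11ra1 overlaps on the other strand. Unique reads gave -0.92 (adjusted p = 0.0778), and leaving out 1 week replicate 4 or 3 weeks replicate 1 or 2 also ended the call (adjusted p = 0.0566, 0.0572 and 0.0564).

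Ccl20, the Ccr6 ligand that calls dendritic cells and Th17 cells, was even at 1 week with 1.42 to 1.95 RPKM. At 3 weeks it was at 0.264, 0.685 and 0.514 RPKM in replicates 1 to 3 and at 5.65 RPKM in replicate 4. Over all samples the fitted log2 fold change was 0.24 ± 0.81 (adjusted p = 0.847), and without 3 weeks replicate 4 it turned to -1.55 (adjusted p = 0.0102). In the main fit a single library thus set the direction for Ccl20. The replicate block and limma on RPKM also gave a negative value, with all samples kept.

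The remaining 5 CC chemokines were not expressed above the filter. Ccl17 had no read in any sample, which allows up to 0.283 to 0.407 RPKM. Ccl3 had at most 1 read, Ccl4 at most 2 and Ccl22 at most 4 reads in a sample. Ccl5, an attractant of T cells and monocytes, had 7, 21, 3 and 5 reads at 1 week and 2, 5, 6 and 6 reads at 3 weeks. Its groups overlapped.

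All 4 ligands of the CSF receptors passed the filter, and Csf1 and Csf2 rose. Csf1, the growth factor of macrophages, measured 17.4, 32.7, 27.3 and 14.6 RPKM at 1 week and 60.5, 41.7, 29.8 and 103 RPKM at 3 weeks. On RPKM, 1 week replicate 2 lay above 3 weeks replicate 3, whereas on log2 CPM the groups did not overlap. The means were 23.0 ± 8.46 and 58.8 ± 32.3 RPKM. On the log2 scale the rise was 1.50 ± 0.38 (adjusted p = 0.0151), which lost its call without 1 week replicate 1 (adjusted p = 0.0550).

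Csf2, or GM-CSF, which acts on granulocytes, macrophages and dendritic cells, had 1.77, 1.70, 3.66 and 1.42 RPKM at 1 week and 3.82, 5.32, 4.26 and 12.4 RPKM at 3 weeks. Here too the groups were separate, with 1 week replicate 3 close to the lowest 3-week sample. The log2 fold change of 1.75 ± 0.45 (adjusted p = 0.0164) was the highest among the members. The call was lost without 1 week replicate 1 or 4 (adjusted p = 0.0550 and 0.0503) and with the preparation block (1.63, adjusted p = 0.0730), and Gm12223 overlaps the gene on the other strand.

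Csf3, or G-CSF, the growth factor of neutrophils, measured 5.54, 15.6, 6.11 and 4.77 RPKM at 1 week and 13.9, 12.7, 13.5 and 12.0 RPKM at 3 weeks. One 1-week sample, replicate 2, exceeded the whole 3-week group, which was tight. The log2 fold change was 0.87 ± 0.35 (adjusted p = 0.0878), and without 1 week replicate 2 it was called higher (1.41, adjusted p = 0.00165), as it was with the preparation block (1.32, adjusted p = 0.00851). Il34, the other ligand of the Csf1 receptor and known from the epidermis, lay between 4.49 and 7.75 RPKM at 1 week and between 5.07 and 9.83 RPKM at 3 weeks. Its log2 fold change of 0.37 ± 0.25 did not pass the test (adjusted p = 0.301).

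In the interleukin-6 family, Clcf1 fell and Lif did not pass the test. Clcf1, a ligand of the Cntf receptor complex, measured 2.14, 3.86, 2.81 and 3.48 RPKM at 1 week and 1.30, 1.39, 1.08 and 1.65 RPKM at 3 weeks. The groups did not overlap, and the log2 fold change of -1.02 ± 0.21 (adjusted p = 0.00610) was called under all 17 alternatives run.

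Lif, which signals through Lifr and Il6st, had 10.5, 15.7, 13.8 and 13.0 RPKM at 1 week. At 3 weeks replicates 1 to 3 were at 12.7, 10.4 and 9.18 RPKM and replicate 4 at 38.4 RPKM. The log2 fold change of 0.55 ± 0.41 (adjusted p = 0.335) changed sign to -0.12 (adjusted p = 0.563) without that library. Il6 itself had at most 1 read in any sample, which lies under the floor of 0.0600 to 0.0861 RPKM. Il11 had 2, 2, 3 and 1 reads at 1 week and 8, 11, 3 and 1 reads at 3 weeks and did not pass the filter.

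Of the interleukin-20 family, Il24 was prominent and fell. This cytokine, which acts on KCs themselves through Il20rb-containing receptors, measured 21.6, 24.0, 93.7 and 96.3 RPKM at 1 week and 7.86, 12.5, 6.54 and 0.442 RPKM at 3 weeks. All 1-week samples exceeded all 3-week samples, but neither group was homogeneous. The log2 fold change of -2.93 ± 0.83 (adjusted p = 0.0251) was the lowest of the members. Its call ended without 1 week replicate 3 or 4 or 3 weeks replicate 1 (adjusted p = 0.0607, 0.0648 and 0.0599), and also with the preparation block (-3.37, adjusted p = 0.0604).

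At 1 week, replicates 3 and 4 lay above 1 and 2 for Cxcl2, Cxcl3, Cxcl14 and Il24 (18.2% of the 22 members, against 31.5% of all genes tested). They lay below for Cxcl12, Cxcl16, Ccl20, Il23a and Il34 (22.7%, against 30.7% of all genes tested). This split was therefore no more frequent among the members than among all genes. The melanocyte marker sum given above had the same split, and its part in the Il24 level was not tested. Il19, which lies near Il24 on chromosome 1, did not pass the filter, with 1, 1, 7 and 12 reads at 1 week and 2, 1, 2 and 1 reads at 3 weeks. Il20, which lies between them, had 1 read in all.

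Tnf, the ligand that starts inflammatory signalling in the TNF superfamily, was expressed at both times. It measured 9.36, 17.1, 15.6 and 9.86 RPKM at 1 week and 20.7, 15.0, 12.1 and 18.4 RPKM at 3 weeks, with overlapping groups. With 0.51 ± 0.23 the log2 fold change did not pass the test (adjusted p = 0.116). Tnfsf10, or TRAIL, with at most 6 reads and Tnfsf11, or RANKL, with at most 2 reads in a sample did not pass the filter.

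Mif, a cytokine that is stored in cells and released, was the most abundant member. Its levels were 455, 409, 427 and 480 RPKM at 1 week and 365, 398, 451 and 278 RPKM at 3 weeks. The groups overlapped, and the log2 fold change was -0.07 ± 0.19 (adjusted p = 0.803). As 35.0% of its reads were unique, the level depends on how reads shared with near-identical copies were placed.

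Il23a, the p19 subunit of interleukin-23, had 5.07, 13.6, 4.96 and 2.93 RPKM at 1 week and 12.7, 9.56, 7.15 and 2.51 RPKM at 3 weeks. In both groups replicate 4 was lowest, and the log2 fold change of 0.44 ± 0.55 did not pass the test (adjusted p = 0.575). Il15, a survival factor of T and NK cells, had 3 to 10 reads at 1 week and 5 to 17 reads at 3 weeks and stayed below the filter.

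The replicates contributed unequally to the spread. 3 weeks replicate 4 was the highest 3-week sample for 10 of the 22 members (45.5%, against 33.6% of all genes tested). These were Cxcl1, Cxcl2, Cxcl3, Cx3cl1, Ccl20, Csf1, Csf2, Il34, Lif and Clcf1. The same library was lowest for 7 members (31.8%, against 39.3% of all genes), among them Il24, Cxcl12 and Il23a. At 1 week, replicate 2 was highest for 10 members (45.5%, against 25.5% of all genes), including Cxcl1, Csf1, Csf3, Il23a, Lif and Tnf.

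Several calls among the 11 depended on single samples, so the count moved as well. The number called among all genes moved too, over a range given at the end, so the following counts have no common background. Leaving out 1 week replicate 1 gave 7 called members, of which 1, Cx3cl1, was higher, and leaving out 1 week replicate 4 gave 6, of which 2, Csf1 and Cx3cl1, were higher. Leaving out 3 weeks replicate 4 gave 13, since Cxcl2 and Ccl20 were then also called lower. Without 3 weeks replicate 3, the library with the highest mitochondrial share, 12 were called, since Cxcl10 then passed the filter and was called lower. Cxcl10 was also called lower without 1 week replicate 3. Cxcl5, Cxcl14, Cx3cl1 and Clcf1 were called in all 8 of these fits, although the preparation block did not call Cx3cl1.

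Genes that act together with the members were read from the same fit. They comprised 110 genes, of which 43 passed the filter, 7 rose and 6 fell, beside the background of 32.8% called over all genes tested. With the preparation block 8 were called, 4 of them higher, and Il2rg, Adam10, Ccl6, Ccl25 and Tnfsf15 lost their calls (adjusted p = 0.0555, 0.0605, 0.156, 0.161 and 0.178). The largest list held 40 receptors of the members, and 22 of them did not pass the filter.

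Of the 18 receptors that passed, 2 rose and 2 fell. The death receptor gene Tnfrsf10b, whose ligand is TRAIL, went from 14.0 ± 1.16 to 22.0 ± 6.96 RPKM (log2 fold change 0.79 ± 0.20, adjusted p = 0.0161). Its groups overlapped, as 3 weeks replicate 3 (12.0 RPKM) lay below the lowest 1-week sample (13.0 RPKM). The call remained in 6 of the 8 fits that left out a sample. Tnfrsf11a, encoding RANK, was low with 0.205 ± 0.0557 and 0.413 ± 0.212 RPKM (1.14 ± 0.38, adjusted p = 0.0484), and the call remained in 1 of the 8 fits that left out a sample. Il15ra fell from 0.549 ± 0.104 to 0.112 ± 0.0704 RPKM (-2.11 ± 0.46, adjusted p = 0.00774). Il2rg, the shared γ chain, fell from 2.49 ± 0.682 to 0.973 ± 0.396 RPKM (-1.17 ± 0.36, adjusted p = 0.0357), but 5.25% of its reads were unique and 3 of 8 such fits called it. Tnfrsf1a, a receptor of Tnf, and Il20rb, a chain of Il24 receptors, had log2 fold changes of 0.08 ± 0.12 (adjusted p = 0.641) and -0.28 ± 0.29 (adjusted p = 0.502). Tnfrsf1a measured 28.6 ± 2.51 and 27.0 ± 3.08 RPKM, but Il20rb only 0.433 ± 0.140 and 0.320 ± 0.0501 RPKM. In the same list, Il20ra did not pass the filter, with at most 1 read in a sample. Il22ra1 was at 0.650 ± 0.438 and 0.291 ± 0.372 RPKM (-1.04 ± 0.79, adjusted p = 0.344).

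Among 7 decoy receptors, partners and sheddases, 3 passed and 2 rose. Tnfrsf11b, the soluble RANKL decoy osteoprotegerin, went from 7.05 ± 2.69 to 17.6 ± 4.21 RPKM (1.49 ± 0.29, adjusted p = 0.00530) while its ligand gene Tnfsf11 was near 0. Adam10, the protease that sheds Cx3cl1 and Cxcl16, went from 24.1 ± 3.70 to 32.2 ± 4.47 RPKM (0.58 ± 0.13, adjusted p = 0.0110). For Adam17, which sheds Tnf, the log2 fold change was 0.03 ± 0.19 (adjusted p = 0.910).

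All 12 genes of cytokine mRNA decay and SOCS feedback passed the filter, and 3 were called. Zfp36l2, whose protein binds AU-rich elements, fell from 90.7 ± 6.55 to 41.2 ± 17.3 RPKM (-0.99 ± 0.23, adjusted p = 0.0114), with 38.3% of its reads unique. Socs1, an inhibitor of JAK kinases, fell from 1.41 ± 0.272 to 0.596 ± 0.0499 RPKM (-1.08 ± 0.22, adjusted p = 0.00604). Rc3h2, encoding the RNA-binding protein Roquin-2, rose from 1.16 ± 0.294 to 2.13 ± 0.685 RPKM (1.02 ± 0.26, adjusted p = 0.0158). Zfp36, which encodes tristetraprolin, had -0.19 ± 0.22 (adjusted p = 0.543).

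Of 51 other chemokines and cytokines, 10 passed the filter, 2 rose and 2 fell. Kitl, the stem cell factor that supports melanocytes and mast cells, fell from 3.43 ± 0.982 to 0.692 ± 0.175 RPKM (-2.15 ± 0.25, adjusted p = 0.000571). Tnfsf15 was low and fell from 0.369 ± 0.198 to 0.0861 ± 0.0803 RPKM (-1.97 ± 0.61, adjusted p = 0.0363), a call left in 2 of the 8 fits without a sample. Ccl6 with 1.78 ± 0.53 (adjusted p = 0.0313, called in 4 of 8) and Ccl25 with 0.88 ± 0.22 (adjusted p = 0.0162, called in 7 of 8) rose at levels of at most 1.70 RPKM on average. Ppbp, another Cxcr2 ligand gene of the chromosome 5 region, was named after its values were seen, because of its high level. It had 170 ± 88.4 RPKM at 1 week and 256 ± 122 RPKM at 3 weeks. All its 3-week samples (140 to 420 RPKM) lay above those of Cxcl1 (41.2 to 132 RPKM). At 1 week the samples of Ppbp and Cxcl1 overlapped. The log2 fold change of Ppbp, 0.75 ± 0.44, did not pass the test (adjusted p = 0.227).

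**Figure D4:**
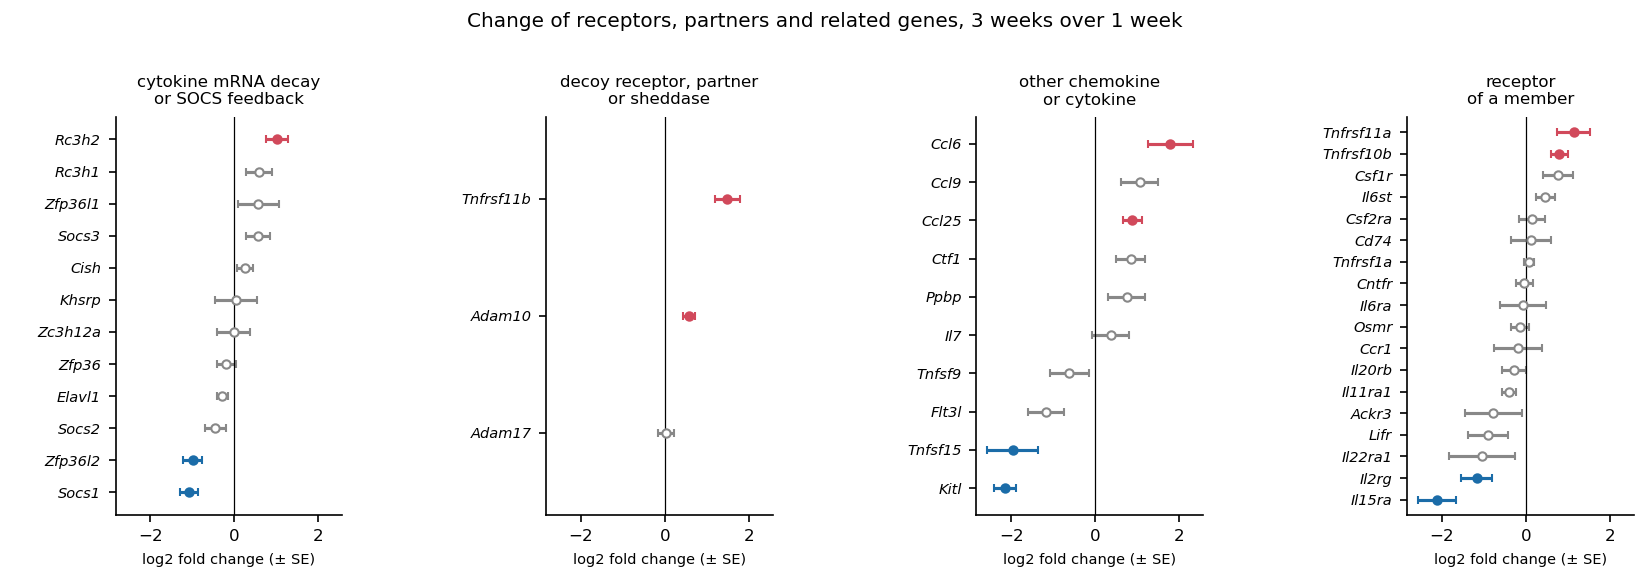
log2 fold change from 1 to 3 weeks with its SE for the 43 related genes that passed the filter, in 4 panels by list, filled where the adjusted p is under 0.05 (red higher, blue lower). 13 of the 43 are filled, with Kitl and Il15ra lowest and Ccl6 highest.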

How the data were processed

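RNA of 8 KC cultures (4 of 1 week, 4 of 3 weeks) was sequenced. Per the study's methods, the authors enriched poly(A) RNA, sequenced single reads, mapped them to GRCm38 and counted them with CLC Genomics Workbench at default settings. Whether counting used strand is not given in the sources used here, so reads of genes that overlap on opposite strands cannot be told apart. This concerns Cxcl10, Cxcl11, Cxcl15, Cxcl16, Cxcl17, Ccl2, Ccl27a, Csf2, Il34 and Clcf1 among the members. The deposited tables give read counts per gene (total and unique exon reads) and RPKM, which equals total exon reads over exon length and one number per sample. Here total exon reads of all 8 samples were fitted with edgeR 4.0.16 in R 4.3.3 (filterByExpr with a minimum count of 10, TMM, quasi-likelihood test), with no covariate and Benjamini-Hochberg adjustment at 0.05 over 12590 genes. SEs were taken from the F statistic. Levels are the deposited RPKM values, and the filter was passed by 22 of 39 members.

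The members and lists were chosen with earlier results of these data known. Each member is reported, with values per sample where it was called or had a mean of at least 10 RPKM, and by range otherwise. The values or reads per sample of Il23a, Cxcl10, Ccl5, Il11 and Il19, and of Ccl20 at 3 weeks, were added after they were seen. Related genes are named if called, and a few others (Tnfrsf1a, Il20rb, Il20ra, Il22ra1, Adam17, Zfp36, Ppbp) were added after their values were seen. A floor is 3 reads. Alternatives were DESeq2 1.42.0, upper-quartile scaling, no filter, at least 10 reads in every sample, unique exon reads, limma 3.58.1 on log2(RPKM + 0.1) and log2(RPKM + 1), blocks for replicate or preparation number, and leaving out each sample. In a test on simulated data of 12590 genes, of which 200 were changed, the fit recovered 82% of 4-fold and 29% of 2-fold changes with 6 false calls. In the real data 4127 genes were called, and the members scattered more than all genes. These rates are therefore not those of the main fit or of the members. Per the study, the same KC batches were kept for 1 or 3 weeks, and the deposited names give preparation numbers, 3 of which occur at both times. Deviations of samples of one preparation correlated by -0.23 to 0.25 over these 3 pairs. The 1-week samples of preparations 49 and 90 correlated best with their own number (0.20 and 0.25). That of preparation 46 correlated best with preparation 57 (0.42). The labels do not define the numbers, and these values do not settle whether the samples are pairs. The main fit has no block because the study names unpaired tests. The block on these 6 samples is given where it changes a call. P-values measure the spread between these samples. No 2 libraries were alike within counting noise (chi-square per degree of freedom at least 15.5). Promoter sequences are from RefSeq, and 3′ UTRs from GENCODE M21. Trdc could not be counted, as its exon length is listed as 0.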

Additional observations from a re-analysis of the deposited data

Results flagged for a closer look

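In 44 groups of 4 samples (22 members at 2 times), the gap between the highest or lowest sample and its nearest neighbour, as a share of the group's range of log2 CPM, exceeded the critical value of Dixon's test for outliers in 3 cases. By chance about 1 group in 20 does so. Ccl2 was far higher in 1 week replicate 3 than in the others (7.47 RPKM, share 0.944). Il24 was far lower in 3 weeks replicate 4 (0.442 RPKM, share 0.841). Lif was far higher in the same library (38.4 RPKM, share 0.841).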

How the results depend on the processing

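Of 370 comparisons of a member with an alternative, 325 kept direction and side of the threshold, 28 lost and 10 gained the call, and 7 changed sign. Cxcl5, Cxcl14 and Clcf1 were called under all 17 alternatives. Ccl20 turned negative under the replicate block (-0.69), the preparation block (-0.33), limma with a pseudocount of 0.1 (-0.77) or 1 (-0.28), and without 3 weeks replicate 4 (-1.55), where Lif (-0.12) and Mif (0.065) also changed sign. Over the 8 fits without a sample Ccl20 ranged from -1.55 to 0.61, Lif from -0.12 to 0.74 and Mif from -0.26 to 0.065. These fits gave 6 to 13 called members, 1 to 5 of them higher and 4 to 8 lower, 3015 to 4861 called genes among all tested, and 8 to 15 related genes, 3 to 8 of them higher. Without 1 week replicate 4, 8 related genes were called, 3 of them higher. limma called 3 (pseudocount 0.1) and 2 (pseudocount 1) related genes as higher. DESeq2 called Cxcl3, Ccl2 and Csf3 in addition. The cause of these shifts was not tested.

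The labels number replicates 1 to 4 at both times, but deviations of same-numbered samples correlated by -0.23 to 0.25, and 1 of 4 correlated best with its own number, and replicates 2 and 3 come from differently numbered preparations, so the replicate numbers were not taken as pairs. With the replicate block, 5 members were higher and 5 lower (Ccl2 and Cxcl3 gained, Csf1, Ccl27a and Il24 lost), and 8 related genes were called, 3 of them higher. With the block of 3 preparations named at both times, 3 members were higher and 6 lower (Cx3cl1, Ccl7, Csf2 and Il24 lost, Cxcl3 and Csf3 gained), and 8 related genes were called, 4 of them higher. That fit drops 2 samples, and it changed no other call of a member. For neither block is the share of all genes called given here.

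Low counts limit Ccl7 and Ccl27a, with at most 48 and 77 reads in a sample. On the RPKM scale all genes tested shifted by a median of -0.16 (log2).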
